A study of Homo sapiens with 6 samples.

Results

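The 10 genes described here encode secreted proteins of inflammation, namely the cytokines IL6, LIF, IL11, IL1A and IL1B, the chemokines CXCL1, CXCL2, CCL2 and CCL20, and the pentraxin PTX3. They were taken by gene symbol from the 24551 genes of an RNA-Seq study of SPOP deficiency, and all 10 were found, each in a single row. The genes were chosen from their own levels and knockdown changes in these libraries, so those values are given as a description with no test. SPOP is the substrate adaptor of a CUL3 ubiquitin ligase. It was knocked down by siRNA in DU145, a prostate carcinoma line derived from a brain metastasis, and in 769-P, a renal cell adenocarcinoma line. Each line has 1 library labelled NC, the cells transfected with control siRNA in the study, 1 library with SPOP siRNA 1 and 1 with SPOP siRNA 2. The labels list no other treatment. The lines were grown in different media in the study, so line and medium cannot be told apart. The 2 siRNA libraries of a line are its replicates (n = 2), so their spread includes differences between the siRNAs, and the NC library has none.

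IL6, LIF and IL11 bind separate receptor chains that all signal through gp130 (the IL6ST product) to JAK kinases and STAT3. IL-1α and IL-1β act through IL1R1, IL1RAP and MYD88 to NF-κB and AP-1, which in turn drive many chemokine genes. CXCL1 and CXCL2 attract neutrophils through CXCR2, CCL2 attracts monocytes through CCR2, and CCL20 attracts lymphocytes and dendritic cells through CCR6. PTX3 is a long pentraxin, a soluble pattern recognition protein of innate immunity that many tissue cells release in response to IL-1 and TNF.

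The promoters of these genes are shown first because the same short motifs recur in them and because CXCL1 and CXCL2 are alike just upstream of the start. RefSeq promoter windows on GRCh38.p14 were found for 8 of the 10 genes, all but LIF and CCL2, and the 250 bases upstream of the transcription start were searched on both strands. The NF-κB motif, 3 G, any 2 bases, 3 T and 2 C, was present in IL6, CXCL1, CXCL2 and CCL20, and in 1.73% of all 35116 windows searched. The C/EBP motif TTGCNNAA was present in IL6, IL1B, CXCL2 and PTX3, and in 9.05% of all windows. The AP-1 motif TGANTCA was present in IL11 and IL1A, and in 6.57% of all windows. The TATA motif TATAAA was present in CCL20 and IL1A, and in 10.7% of all windows. No 2 of these motifs overlapped in the stretches printed. A match is a description of the letters and not of binding. The stretches below hold the matches in capitals for 4 genes, 2 of the gp130 cytokines, a CC chemokine and the pentraxin. They are at chr7:22727039-22727142 on the plus strand for IL6, chr19:55370547-55370565 on the minus strand for IL11, chr2:227813757-227813824 on the plus strand for CCL20 and chr3:157436688-157436707 on the plus strand for PTX3. The capitals mark C/EBP and then NF-κB in IL6, AP-1 in IL11, NF-κB on the opposite strand and then TATA in CCL20, and C/EBP on the opposite strand in PTX3.
IL6: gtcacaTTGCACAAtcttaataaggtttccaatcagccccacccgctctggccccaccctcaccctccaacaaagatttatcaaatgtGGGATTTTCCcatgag
IL11: ggagggTGAGTCAggatgt
CCL20: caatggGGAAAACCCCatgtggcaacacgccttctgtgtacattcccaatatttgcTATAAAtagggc
PTX3: ttaataTTGTGCAActtcca

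CXCL1, CXCL2 and their neighbour CXCL3 are shown together over bases 100 to 16 upstream of the start, with the NF-κB motif in capitals. The stretches are at chr4:73869293-73869377 on the plus strand for CXCL1, chr4:74099211-74099295 on the minus strand for CXCL2 and chr4:74038705-74038789 on the minus strand for CXCL3.
CXCL1: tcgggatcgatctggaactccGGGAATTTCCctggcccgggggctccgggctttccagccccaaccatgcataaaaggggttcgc
CXCL2: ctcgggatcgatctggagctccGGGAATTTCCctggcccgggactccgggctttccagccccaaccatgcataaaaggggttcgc
CXCL3: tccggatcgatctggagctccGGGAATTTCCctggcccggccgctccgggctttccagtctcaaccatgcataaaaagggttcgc
Over the 100 bases upstream, CXCL1 and CXCL2 were 94.1% identical, CXCL1 and CXCL3 90% and CXCL2 and CXCL3 89.1%. Over 250 bases the identities were 70.4%, 81.4% and 73.3% for the same pairs. In the transcripts, with 2 mismatches allowed in a 100-base window, 8.84% of the windows of CXCL1, 12.1% of those of CXCL2 and 2.87% of those of CXCL3 occurred in another of the 3 genes. Their values are uncertain to the extent that reads from such windows were shared between them.

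The values are FPKM, the fragments of a gene per kilobase of its transcript relative to all mapped fragments, and changes are differences in log2(FPKM + 1) between a siRNA library and the NC library of its line, a scale that understates changes of low genes. A gene was called past 1.5-fold only when it crossed 0.58 on this scale in the same direction with both siRNAs. SPOP itself was at 16.1 FPKM in DU145 NC and at 2.77 and 2.96 with the siRNAs, and at 11.6, 1.53 and 1.39 FPKM in 769-P, so all 4 siRNA libraries were well below NC. Relative depth, taken from low values with the 769-P NC library set to 1, ranged from 0.681 to 1.41. The libraries DU145 NC and 769-P siRNA 2 stood apart. Of 366 olfactory receptor genes, 287 and 237 had values above 0 there, with means of 0.345 and 0.227 FPKM, against 3 to 5 genes in the other libraries. The renal factor PAX8 was at 106 to 125 FPKM in 769-P and at most 1.47 in DU145, while CA9, a marker of clear cell carcinoma, was at 0 in all 769-P libraries. In DU145 CDH1, the epithelial cadherin, was at 8.87 to 17.7 FPKM, while the prostate markers HOXB13 and KLK3 were at most 0.312 FPKM. The 10 leukocyte markers summed to 0.762 to 2.13 FPKM in DU145 and 1.28 to 2.40 in 769-P, and PTPRC, the pan-leukocyte gene, was at most 0.0347 FPKM. The 7 fibroblast and endothelial markers summed to at most 0.689 FPKM.

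The 10 genes were unequally expressed, and only 4 of them, LIF, IL11, CXCL2 and PTX3, reached a mean of 1 FPKM over the 6 libraries. LIF was the most abundant of the 10 in both lines, with 53.6 ± 8.84 FPKM (SD, n = 3 libraries) in DU145 and 48.7 ± 2.65 FPKM in 769-P. In DU145 it was followed by IL11 at 15.9 ± 8.84, CXCL2 at 5.45 ± 0.42, CXCL1 at 1.79 ± 0.808 and IL6 at 1.38 ± 0.80 FPKM, and the last 2 overlapped. In 769-P it was followed by PTX3 at 18.7 ± 8.88 FPKM and then by CXCL2 at 1.70 ± 1.01, CCL2 at 1.19 ± 1.01 and IL11 at 0.841 ± 0.715 FPKM, whose ranges overlapped. The remaining members had means of at most 0.25 FPKM in either line. These means and SDs pool the NC library with both siRNA libraries, so they take in any difference after knockdown. In every library of DU145 IL11, CXCL1, CXCL2 and IL6 were above every library of 769-P, and PTX3 and CCL2 were the reverse. In bulk RNA, fewer cells with a transcript and less of it per cell cannot be told apart.

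**Figure D1:**
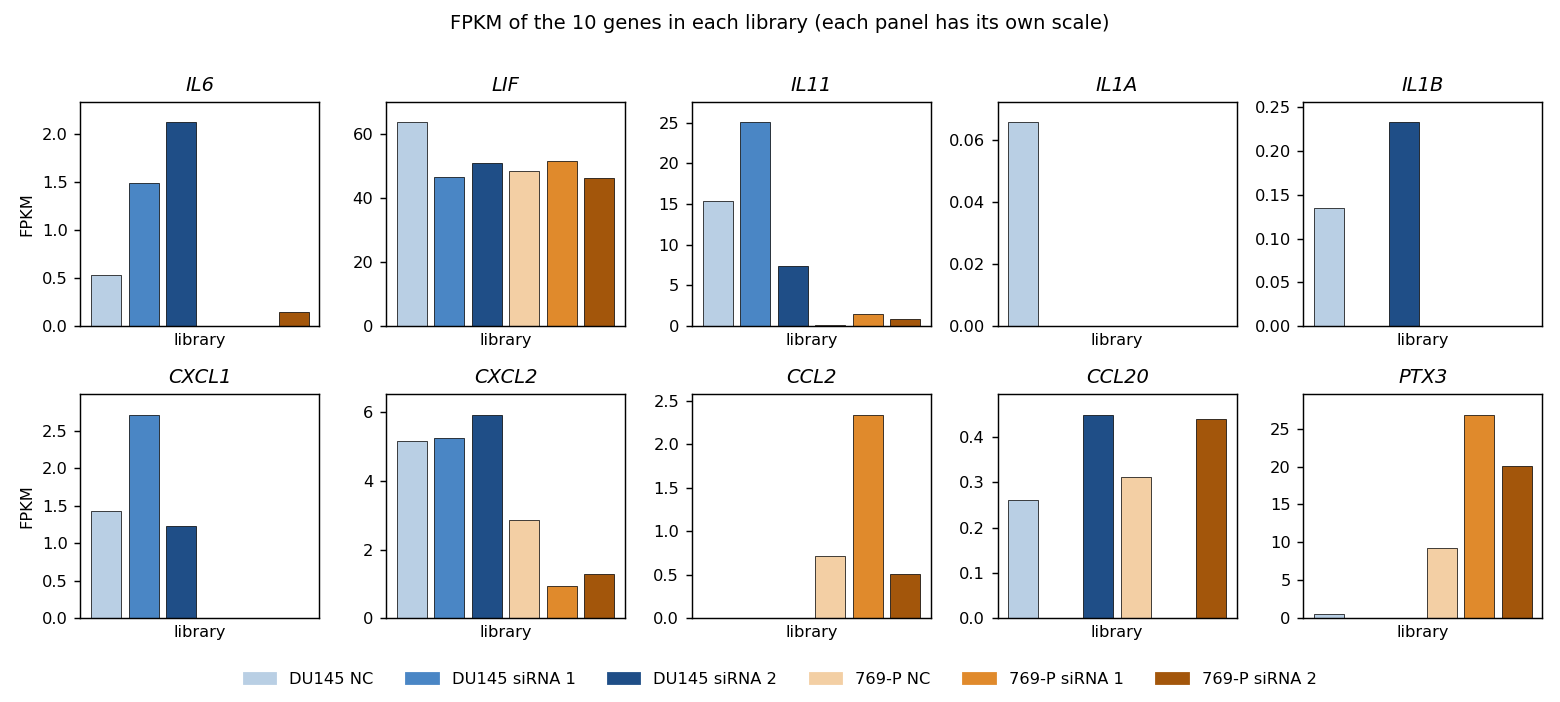
FPKM of the 10 genes in each of the 6 libraries, 1 bar per library and 1 panel per gene, each panel on its own linear scale from 0 (blue, DU145; orange, 769-P; palest, NC). LIF sits between 46.1 and 63.5 FPKM in all libraries, PTX3 is above 9 FPKM only in 769-P, and CXCL1 has bars only in DU145.

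Among the gp130 cytokines, IL6 was higher with both siRNAs in DU145. It is the best known inducer of the acute-phase response and lies on chromosome 7 of GRCh37 from 22765503 to 22771621. IL6 was at 0.526 FPKM in DU145 NC, 1.49 with siRNA 1 and 2.11 with siRNA 2, so both siRNA libraries were above NC. The changes were 0.70 and 1.03 on the log2 scale. In 769-P it was listed at 0 in NC and with siRNA 1, and at 0.146 FPKM with siRNA 2, a library in which many unexpressed genes had values of this size. The DU145 NC level of IL6 was also within the range of the olfactory receptor genes of that library, which reached 1.60 FPKM. When the olfactory mean of each library was subtracted, IL6 remained the single member past 1.5-fold in DU145, at 0.181 FPKM in NC, 1.48 and 2.11.

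LIF, which sustains stem cell self-renewal and acts in wasting and implantation, was past 1.5-fold in neither line. It lies on chromosome 22 from 30636442 to 30642748. In DU145 it was at 63.5 FPKM in NC, 46.5 with siRNA 1 and 50.9 with siRNA 2. Both siRNA libraries were below NC there, with changes of −0.44 and −0.31. In 769-P it was at 48.5, 51.4 and 46.1 FPKM, and the siRNA libraries lay on either side of NC.

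IL11, a cytokine of stromal and epithelial cells that is tied to fibrosis and platelet formation, differed between the siRNAs in DU145. It lies on chromosome 19 from 55875750 to 55881831. It was at 15.4 FPKM in DU145 NC, 25.0 with siRNA 1 and 7.35 with siRNA 2, so the changes of 0.66 and −0.98 had opposite signs. In 769-P it was at 0.104 FPKM in NC, 1.53 with siRNA 1 and 0.885 with siRNA 2. Both siRNA libraries were above NC there, by 1.20 and 0.77, and by 14.7 and 8.48 times on the linear scale, from an NC value too low to fix the ratio. The siRNA 2 value was within the range of the olfactory receptor genes of that library, which reached 1.53 FPKM. When the olfactory mean of each library was subtracted, IL11 was at 0.0992, 1.53 and 0.658 FPKM in 769-P and remained past 1.5-fold.

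IL1A, on chromosome 2 from 113531502 to 113542070, and IL1B, from 113587328 to 113594393, which encode the alarmin IL-1α and the inflammasome product IL-1β, were barely detected. IL1A was listed at 0.0658 FPKM in DU145 NC and at 0 in the other 5 libraries. IL1B was at 0.135 FPKM in DU145 NC, 0 with siRNA 1 and 0.232 with siRNA 2, and at 0 in all 769-P libraries. No change of either gene could be told at these levels.

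Of the CXC chemokines, CXCL2 was lower with both siRNAs in 769-P and close to NC in DU145. CXCL2 lies on chromosome 4 from 74962757 to 74964913 and CXCL1 from 74735110 to 74737025. CXCL2 was at 5.17 FPKM in DU145 NC, 5.25 with siRNA 1 and 5.93 with siRNA 2, changes of 0.02 and 0.17. In 769-P it was at 2.85, 0.952 and 1.29 FPKM, changes of −0.98 and −0.75, with both siRNA libraries below NC. CXCL1 was at 1.42 FPKM in DU145 NC, 2.71 with siRNA 1 and 1.23 with siRNA 2, so the siRNA libraries lay on either side of NC. CXCL1 was listed at 0 in all 769-P libraries.

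The CC chemokines showed no direction shared by the siRNAs. CCL2, on chromosome 17 from 32582293 to 32584227, was listed at 0 in all DU145 libraries and at 0.719, 2.34 and 0.506 FPKM in 769-P NC, siRNA 1 and siRNA 2. The siRNA 1 library alone was above NC. CCL20, on chromosome 2 from 228670455 to 228682280, was at 0.261, 0 and 0.449 FPKM in DU145 and at 0.311, 0 and 0.439 FPKM in 769-P. CCL20 was listed at 0 with siRNA 1 in each line, and no change of it could be told at these levels.

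PTX3 was higher with both siRNAs in 769-P. Its mean change there was the largest of the 10 genes with a pseudocount of 1, and with a pseudocount of 0.1 that of IL11 was larger, at 2.63 against 1.32. It lies on chromosome 3 from 157154639 to 157161422. In 769-P it was at 9.24 FPKM in NC, 26.8 with siRNA 1 and 20.0 with siRNA 2, changes of 1.44 and 1.04 with a mean of 1.24 ± 0.29 (SD, n = 2 siRNAs). Both siRNA libraries were above NC, by 2.91 and 2.17 times. In DU145 PTX3 was at 0.510 FPKM in NC and was listed at 0 with both siRNAs, which gave a change of −0.59, just past the threshold of 0.58. The NC value there was within the range of the olfactory receptor genes, and once their mean was subtracted it was 0.165 FPKM and no longer past the threshold. The part of this background in the low values was not tested.

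Counted over the 10 genes, IL6 was past 1.5-fold higher and PTX3 past 1.5-fold lower with both siRNAs in DU145, where 2.61% of all 24551 genes were past it higher and 2.03% lower. In 769-P IL11 and PTX3 were past it higher and CXCL2 lower, where 1.89% of all genes were past it higher and 2.0% lower. PTX3 in 769-P was the single member past 2-fold with both siRNAs, a threshold that 0.326% of all genes passed upward there. Among the 11865 genes that averaged 1 FPKM or more, to which 4 members belong, the shares past 1.5-fold were 4.72% higher and 1.19% lower in DU145 and 3.60% higher and 3.73% lower in 769-P. No member crossed 1.5-fold upward in both lines or downward in both. Since these genes were chosen from the same changes, nothing is read from their counts.

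**Figure D2:**
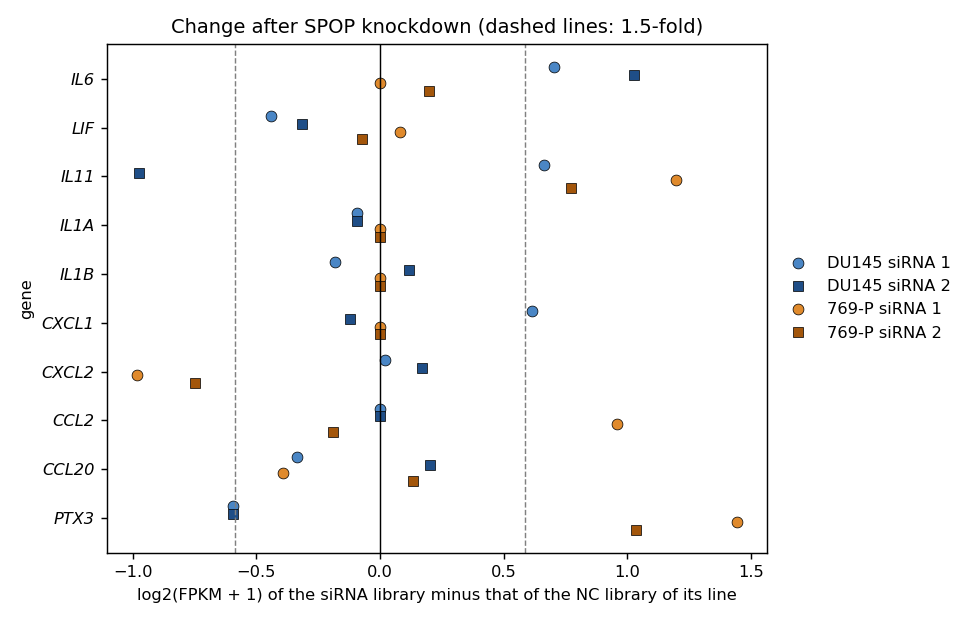
Change in log2(FPKM + 1) over the NC library of the same line for each siRNA, 1 row per gene (circles, siRNA 1; squares, siRNA 2; blue, DU145; orange, 769-P; dashed lines, 1.5-fold). Both DU145 points of IL6 and both 769-P points of IL11 and PTX3 lie right of the upper line, and both 769-P points of CXCL2 lie left of the lower line.

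The low values of several members came in whole multiples of a step once they were multiplied by the relative depth of the library. With a tolerance of 0.12 of a step, this held for IL6, IL1B, CXCL1, CXCL2, CCL2 and CCL20, and for CXCL3. The search began from the smallest value of a gene and allowed a limited number of steps. It therefore could not decide for LIF, IL11 and PTX3, whose values reach higher, and no step was found for them. IL1A has a single value above 0, which cannot show a step. The step multiplied by the transcript length was 0.226 to 0.265 FPKM × kb for these 7 genes. IL6 rested on 3 steps in DU145 NC, 5 with siRNA 1 and 7 with siRNA 2. CXCL1 rested on 8, 9 and 4 steps in DU145, and CCL2 on 2, 7 and 2 steps in 769-P. CCL20 rested on 1, 0 and 1 steps in DU145 and on 1, 0 and 2 steps in 769-P. CXCL2 rested on 30, 18 and 20 steps in DU145 and on 14, 5 and 9 steps in 769-P.

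Taking 1 step as 1 fragment, exact 95% intervals for the ratio to NC, from the conditional binomial, were wide. They describe counting precision alone and are no test of genes chosen from these changes. For IL6 in DU145 the ratio was 2.83 (0.55 to 18.2) with siRNA 1 and 4.03 (0.919 to 24.1) with siRNA 2. For CXCL2 in 769-P it was 0.335 (0.0943 to 0.983) with siRNA 1 and 0.455 (0.174 to 1.13) with siRNA 2. For CCL2 in 769-P it was 3.28 (0.625 to 32.4) with siRNA 1.

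**Figure D3:**
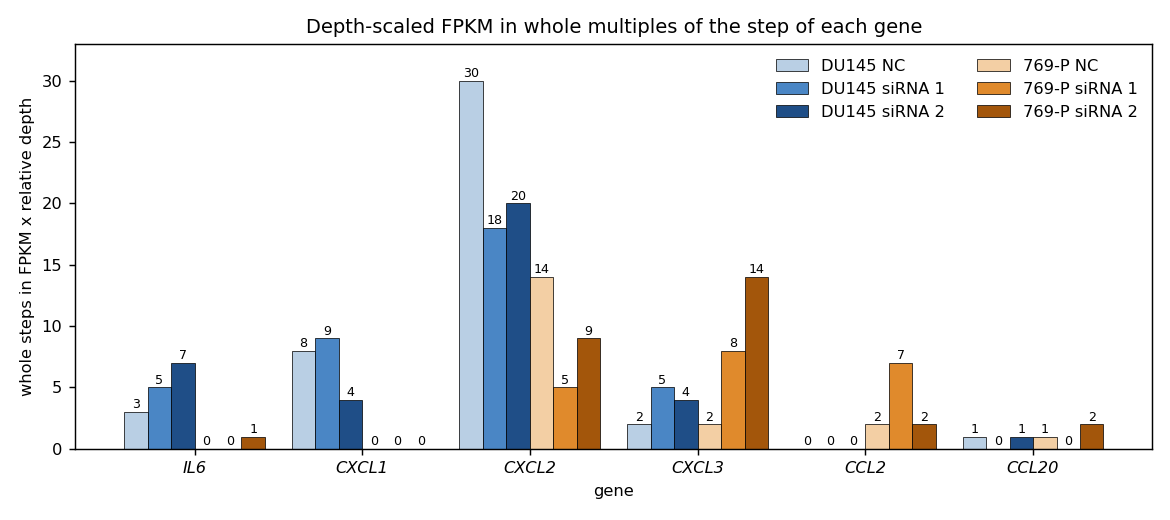
Depth-scaled FPKM in whole steps for IL6, CXCL1, CXCL2, CXCL3, CCL2 and CCL20, with the number of steps printed over each of the 6 bars of a gene, in the order DU145 NC, siRNA 1 and siRNA 2, then 769-P NC, siRNA 1 and siRNA 2. CXCL2 reaches 30 steps in DU145 NC, and the IL6 bars hold at most 7.

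The receptor genes of these ligands were not used in choosing the 10 genes, and their levels and changes were tested. IL6ST, the shared signalling chain, was at 14.9, 10.8 and 11.0 FPKM in DU145 NC, siRNA 1 and siRNA 2 and at 15.5, 8.56 and 7.63 FPKM in 769-P. It was past 1.5-fold lower with both siRNAs in 769-P, with a mean change of −0.86 (standard error 0.23, unadjusted p = 0.0117, adjusted p = 0.693 by limma with Benjamini-Hochberg adjustment over all genes tested), so it did not pass the test. The IL11 receptor IL11RA was at 9.64 to 11.1 FPKM in DU145 and 1.54 to 1.92 in 769-P. The LIF receptor LIFR was at 2.04 to 2.70 FPKM in DU145 and 0.101 to 0.165 in 769-P. IL6R was at 7.86, 4.93 and 16.7 FPKM in DU145 and 2.79, 1.25 and 2.86 in 769-P. All libraries of DU145 were above all libraries of 769-P for these 3 genes. By limma on the 3 libraries of each line, the level in 769-P minus that in DU145 was −2.10 for IL11RA (standard error 0.17, adjusted p = 0.00066), −1.59 for LIFR (standard error 0.17, adjusted p = 0.00136) and −1.61 for IL6R (standard error 0.47, adjusted p = 0.0382). The IL6R difference was the least secure. By limma its adjusted p was 0.0958 without DU145 siRNA 2, 0.206 without 769-P siRNA 1, 0.124 without 769-P siRNA 2, 0.231 with low genes kept in and 0.066 after quantile normalization.

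Among the IL-1 receptor genes, IL1RAP and SIGIRR passed between the lines and IL1R1 did not. IL1RAP, the accessory chain, was lower in 769-P by limma, with a difference of −1.21 (standard error 0.19, adjusted p = 0.00511), and SIGIRR, a negative regulator of IL-1 and Toll-like receptor signalling, was higher by 2.34 (standard error 0.31, adjusted p = 0.00285). The adjusted p of IL1RAP by limma was 0.0532 without 769-P siRNA 1 and 0.0548 without 769-P siRNA 2, and that of SIGIRR was 0.0567 without the filter. SIGIRR was at 0.829 to 2.83 FPKM in DU145 and 13.3 to 14.7 in 769-P. For IL1R1 the difference was −0.57 (adjusted p = 0.0764 by limma). The decoy receptor IL1R2 was at 0 in DU145 and at 0.621 to 1.87 FPKM in 769-P. The chemokine receptors CXCR1, CXCR2, CCR2 and CCR6 were at most 0.18 FPKM in any library. Of the 7 receptor genes tested, 5 passed between the lines, where 45.5% of all genes tested passed. For knockdown 0 passed in DU145, where 0.135% of all genes passed, and 0 in 769-P, where 0.101% passed.

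**Figure D4:**
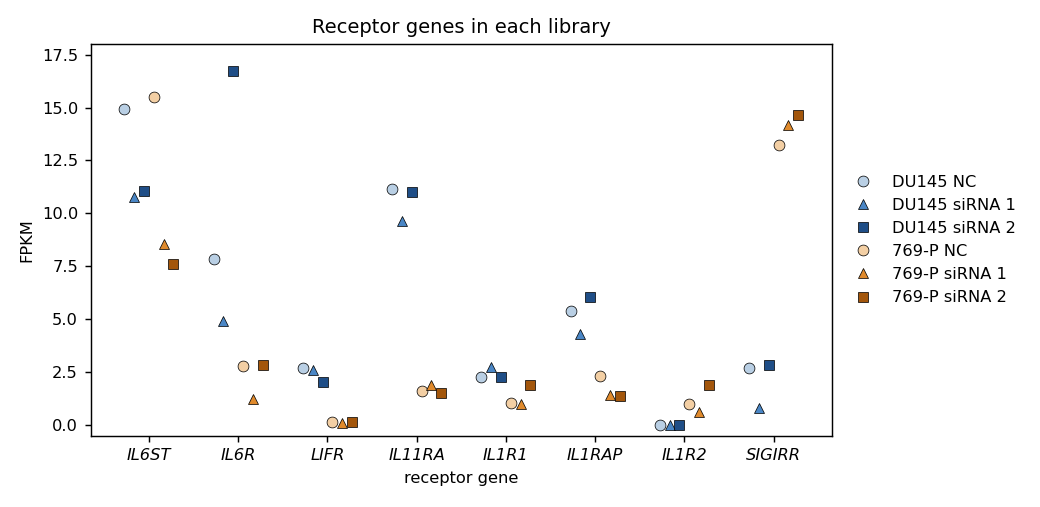
FPKM of 8 receptor genes in each library (circles, NC; triangles, siRNA 1; squares, siRNA 2; blue, DU145; orange, 769-P). IL11RA, LIFR and IL1RAP lie higher in DU145 in every library, and SIGIRR lies higher in 769-P at 13.3 to 14.7 FPKM.

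The wider pathway was taken from 9 lists with 175 genes, of which 168 were found, 98 had a mean of at least 1 FPKM and 20 were at 0 in every library. In the test of SPOP knockdown by limma with an adjusted p of 0.05, 0 of the 98 genes passed in DU145 (13 at an unadjusted p of 0.05), where 0.135% of all genes tested passed, and 0 in 769-P (6 unadjusted), where 0.101% passed. The difference of knockdown between the lines passed for 0 of the 98 (5 unadjusted) and for 0.169% of all genes. The smallest adjusted p over the 98 genes was 0.670 in DU145 and 0.546 in 769-P. By fold alone, 4 of the 98 were past 1.5-fold higher and 7 lower with both siRNAs in DU145, and 2 were higher and 3 lower in 769-P. These are 4.08% and 7.14% of the 98 in DU145, beside 4.72% and 1.19% of all genes tested, and 2.04% and 3.06% in 769-P, beside 3.60% and 3.73%. The median change of the 98 genes was 0.04 in DU145 and −0.03 in 769-P, beside 0.09 and −0.03 over all genes tested.

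The nearest relatives of the members were the other chemokines and pentraxins. Of 34 such genes 13, among them the short pentraxin CRP, were at 0 in every library, and 10 were tested. CXCL3, on chromosome 4 from 74902306 to 74904524, was past 1.5-fold higher with both siRNAs in both lines. It was at 0.362, 1.53 and 1.25 FPKM in DU145 and at 0.428, 1.60 and 2.11 FPKM in 769-P, so every siRNA library was above its NC. The mean changes were 0.81 in DU145 (unadjusted p = 0.0239, adjusted p = 0.784 by limma) and 0.99 in 769-P (unadjusted p = 0.0106, adjusted p = 0.685 by limma), and neither passed. CXCL3 rested on 2, 5 and 4 steps in DU145 and 2, 8 and 14 in 769-P. It reached the minimum mean of 1 FPKM only through its siRNA libraries, so nothing is read from its calls. Its DU145 NC value was close to the olfactory receptor mean of that library, 0.345 FPKM. With 1 step as 1 fragment, the 95% intervals for the ratio to NC included 1 except with siRNA 2 in 769-P, at 4.95 (1.14 to 44.9). CXCL8, the other main neutrophil attractant, was at 7.73, 3.57 and 5.45 FPKM in DU145 and at 0.828, 0.646 and 2.73 FPKM in 769-P. NPTX1, a neuronal pentraxin, was at 8.18, 15.5 and 16.7 FPKM in DU145 and past 1.5-fold higher with both siRNAs, but it did not pass the test either (adjusted p = 0.786 by limma).

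The other secreted factors named here were past 1.5-fold lower in DU145. CSF2, the macrophage growth factor GM-CSF, was at 8.50, 0.48 and 2.93 FPKM. IL32, a cytokine induced by inflammatory signals, was at 23.3, 10.0 and 9.26 FPKM. Both siRNA libraries were below NC for both genes, and their adjusted p values by limma were 0.786 and 0.673. In 769-P, where IL32 was at 288 to 380 FPKM, neither was past 1.5-fold.

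In the signalling lists, CEBPD, a transcription factor of the C/EBP family, was at 28.5 FPKM in DU145 NC, 90.5 with siRNA 1 and 101 with siRNA 2, and at 26.5, 26.4 and 45.0 FPKM in 769-P. JUND, an AP-1 subunit, was at 57.6, 133 and 116 FPKM in DU145 and at 55.7, 95.6 and 104 FPKM in 769-P, above NC in all 4 siRNA libraries. BIRC3, an NF-κB target that restrains cell death, was at 13.0, 3.47 and 3.78 FPKM in DU145 and at 27.8, 7.09 and 10.3 FPKM in 769-P, below NC in all 4. The NF-κB subunits RELB and NFKB2 and the inhibitor NFKBIE were past 1.5-fold lower in DU145, with mean changes of −0.75, −1.0 and −0.72. SOCS1, a feedback inhibitor of JAK kinases, was at 1.81, 0.188 and 0.426 FPKM in 769-P, and its mean change was −1.11. The adjusted p values of the 7 genes named here were between 0.546 and 0.801 by limma in the lines where they were past 1.5-fold, so no change of them passed the test. In the lists of other gp130 and IL-1 family ligands (3 tested), factors of cytokine mRNA decay (10 tested) and IL-1 processing (7 tested), 0 genes were past 1.5-fold with both siRNAs in either line.

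**Figure D5:**
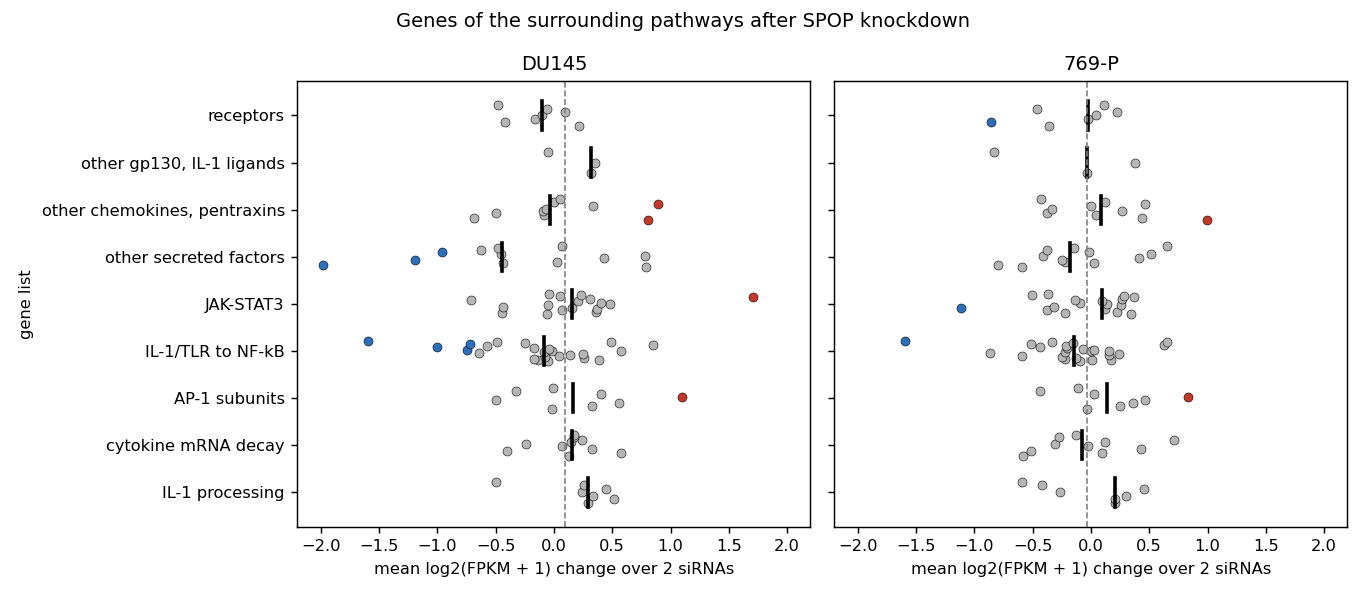
Mean change in log2(FPKM + 1) over both siRNAs for the 98 tested genes of the 9 pathway lists, 1 point per gene (red, past 1.5-fold higher with both siRNAs; blue, past it lower; black bars, list medians; dashed line, median of all tested genes). In DU145 4 points are red and 7 blue, and in 769-P 2 are red and 3 blue.

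Between the lines, 57 of the 98 pathway genes passed at an adjusted p of 0.05 by limma, 25 higher in 769-P and 32 lower, where 45.5% of all genes tested passed. Of all such calls 35.4% were higher in 769-P, and 51.6% after quantile normalization, which removes a median level difference of −0.16 between the lines. Of the 57 genes, 19 passed in every alternative tried. From these, 4 are named after their values were seen. MYD88, the adaptor of the IL-1 receptor, was at 11.5 to 12.2 FPKM in DU145 and 0.169 to 0.251 in 769-P. JAK1 was at 12.3 to 14.7 FPKM in DU145 and 115 to 167 in 769-P. The chemokine CX3CL1 was at 0.0993 to 0.176 FPKM in DU145 and 12.4 to 15.7 in 769-P, and CXCL16 at 10.6 to 15.5 and 0.0923 to 0.824 FPKM.

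The genes whose changes were most like those of IL6 and PTX3 were found by the Euclidean distance over the 4 log2 changes, among genes that averaged 1 FPKM or more. For IL6 they were ZNF883 (distance 0.132), SUSD2 (0.152), PPP1R1C (0.153), GPAA1 (0.166) and ARMCX2 (0.18). GPAA1 was the abundant gene of the 5, at 51.5, 88.4 and 107 FPKM in DU145 and 63.4, 69.6 and 69.1 FPKM in 769-P. For PTX3 they were PHOSPHO1 (0.363), LOC101927905 (0.468), HOGA1 (0.476), JAG1 (0.527) and ALPK2 (0.565). The DU145 changes of PTX3 matched here are its drop from 0.510 FPKM in NC to 0, within the range of the olfactory receptor genes. HOGA1, at 0.313 FPKM in DU145 NC, and ALPK2, at 0.282, were also within that range. PHOSPHO1, LOC101927905 and JAG1 were above 1 FPKM there. JAG1, a ligand of Notch receptors, was at 73.6, 170 and 114 FPKM in 769-P and at 2.42, 1.60 and 1.35 FPKM in DU145.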

How the data were processed

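Polyadenylated RNA of 6 libraries was sequenced by the authors as 100-bp paired-end reads, quality-checked and trimmed (FastQC and cutadapt per the submitters' notes), mapped to hg19 with TopHat2 and summarised with Cufflinks. The authors deposited 1 FPKM value per gene and library. Tool versions and the annotation are not given in the sources used here. The study's methods give 2 biological replicates per sample, a TruSeq kit and another RNA input than the labels, which list 1 library per condition.

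Values of repeated symbols were summed (26006 rows to 24551 genes), and the pseudocount was 1. Genes averaging 1 FPKM or more (11865) were tested with limma 3.58.1 in R 4.3.3 (4 groups, empirical Bayes with a trend, Benjamini-Hochberg adjustment over all genes tested). The fit was also run on simulated data, where recovery was required only for large changes with the median spread given to every gene. That run does not show that changes of the size reported here could be detected. FPKM keeps no counts. The modal ratio of low values between libraries gave the relative depth, and of 1650 low genes 73.7% fell on whole multiples of their smallest value. Each NC group has 1 library, so p-values, also those between the lines, measure only the spread between the 2 siRNA libraries of each line. They do not measure variation between control libraries. Nothing in the labels says that siRNA libraries came from separate cultures. Gene positions are from GENCODE 44 on GRCh37, and promoters from RefSeq on GRCh38.p14. Python 3.11.15 with pandas 2.3.3 was used.

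The 10 genes and the pathway lists were chosen with earlier results of these data known. Genes named are SPOP, the 10 genes, the receptors, in each list up to 4 genes with the largest change past 1.5-fold with both siRNAs of a line, and the 5 nearest genes to IL6 and PTX3. CXCL8, the marker genes and the line-contrast genes were named after their values were seen. Of the listed symbols 7 were not analysed here, and the results for some other listed genes are not reported here. Alternatives were a pseudocount of 0.1, median-centred changes, either siRNA by itself, no minimum or one of 5 FPKM, the largest row of a repeated symbol, the olfactory mean subtracted, and for limma also quantile normalization, a replicate block and no trend.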

Additional observations from a re-analysis of the deposited data

Results flagged for a closer look

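The changes of 2 genes lay on opposite sides of NC in the 2 lines for both siRNAs, and the difference was not tested. For PTX3 the mean log2 change in 769-P minus that in DU145 was 1.84. The DU145 side is a step from 0.510 FPKM in NC to 0 with both siRNAs, and the NC library was the one with values above 0 in 287 of 366 olfactory receptor genes. For CXCL2 the same difference was −0.96. Its DU145 changes were 0.02 and 0.17, and its 769-P changes −0.98 and −0.75 rested on 14, 5 and 9 steps. With median-centred changes the DU145 mean of CXCL2 was −0.0046, so the opposite sides did not hold there.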

How the results depend on the processing

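The number of members past 1.5-fold with both siRNAs was 2 in DU145 and 3 in 769-P. Subtraction of the olfactory mean left 1 in DU145, IL6. With either siRNA alone the number was 3 to 4 in DU145 and 3 to 4 in 769-P. Of the 20 mean changes of members, 9 moved by more than the SD between the siRNAs with a pseudocount of 0.1, 7 when median-centred and 3 with the olfactory mean subtracted, and no called change turned its sign. Where both siRNA libraries were at 0 that SD is 0, and any shift counts as moved. When median-centred, this was so for IL1A, CCL2 and PTX3 in DU145 and for IL1A, IL1B and CXCL1 in 769-P. IL1A and PTX3 in DU145 were such cases in the other settings too, so these counts overstate the dependence. With 2 siRNAs, leaving 1 out cannot move a mean by more than the SD between the siRNAs. Every member has 1 row, so the other alternatives say nothing here. For limma, the counts of genes over all tested were 16 for DU145 knockdown, 12 for 769-P knockdown, 20 for the difference and 5395 between the lines. Without the filter on low values the first 3 became 1186, 148 and 1202, and 9 pathway genes passed in DU145 (APCS, CCL3, CSF3, IFNB1, IL27, IL36G, LCN2, MMP3 and PYCARD). APCS, CCL3, CSF3, IFNB1, IL27 and IL36G were above 0 only in DU145 NC, at 0.189 to 0.279 FPKM. That library had values above 0 in most olfactory receptor genes. Their siRNA libraries were all at 0 and had no spread, so no response to knockdown is read from these calls. LCN2 was at 0.268, 2.72 and 2.31 FPKM in DU145, and MMP3 at 0.217, 0.184 and 0.187. With a mean of at least 5 FPKM, which tests fewer genes, the counts were 4 for DU145, 3 for the difference and 3537 between the lines. The difference gave 0 with a pseudocount of 0.1 and 10 with quantile normalization. The cause was not tested. Leaving out 1 siRNA library, which leaves an arm with 1 sample assumed to vary like the others, gave 0 to 30 for DU145, 0 to 7 for 769-P, 0 to 37 for the difference and 2788 to 4008 between the lines. Without DU145 siRNA 1 the DU145 count was 30 and the difference 37, and without either 769-P siRNA library both were 0. With the replicate block the counts were 18, 14, 8 and 6310. The lines share the siRNA numbers only, and their siRNA 2 minus siRNA 1 differences correlated with r = 0.27 across 11865 genes, which are not independent replicates. The replicate block changed no pathway gene call for knockdown. Of the 57 pathway genes that passed between the lines, 55 passed with quantile normalization, 31 without the filter and 46 with a mean of at least 5 FPKM, and fewer without 1 siRNA library. The genes missing with a mean of at least 5 FPKM lay under that minimum and were not tested, so their loss says nothing about them. IL6R did not pass without the filter, with quantile normalization or without DU145 siRNA 2, 769-P siRNA 1 or 769-P siRNA 2, IL1RAP did not pass without either 769-P siRNA library, and SIGIRR did not pass without the filter. Depth limits IL6, IL1B, CXCL1, CCL2 and CCL20, each on at most 9 steps per library, and IL1A, which has a single value above 0. IL11 was also low in 769-P NC, at 0.104 FPKM, but the search could not place it on steps.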
